A study of Homo sapiens with 18 samples.

Results

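BxPC-3 is an established human pancreatic adenocarcinoma cell line, and the 6 libraries described here came from BxPC-3 cells that received only the vehicle, phosphate-buffered saline (PBS), and were collected 1 h (n = 3) or 4 h (n = 3) later. They are 6 of 18 RNA-seq libraries. The other libraries came from the same cells given hepatocyte growth factor (HGF, 80 ng/ml) or macrophage-stimulating protein (MSP, 100 ng/ml) and collected at the same times, 3 per group. All groups were grown in serum-containing RPMI medium with antibiotics. No sample from before the addition of vehicle was analysed here, so the comparison is between 4 h and 1 h after it, and the addition itself and time in culture cannot be told apart. All genes past a filter on low counts were described, 16794 of the 58395 in the count table. The labels call the libraries triplicates without naming separate cultures. The spread behind every p-value is therefore that between these libraries, and it may be technical.

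Total counts ran from 37450709 to 39542475 in the 1 h vehicle libraries and from 31258894 to 33937712 in the 4 h libraries. The 2 ranges do not overlap, and the part of depth in the results was not tested beyond the scaling alternatives given at the end. No pair of replicates looked like a library deposited again, since a chi-square test of their counts gave 3.72 to 5.47 for each degree of freedom. All 12 ductal epithelial markers were detected, with a summed level of 10889 to 11295 CPM at 1 h and 12192 to 12601 CPM at 4 h. Marker sums here are relative to unscaled library totals. Of the 12, 3 were called higher and 3 lower at 4 h, with a median log2 change of 0.07. Of 12 acinar and endocrine markers, 11 had at most 10 counts in any vehicle library and 4, including INS and GCG, had none. The remaining marker, PRSS1, had 25, 25 and 27 counts at 1 h and 15, 12 and 13 at 4 h, and was not called. Fibroblast markers summed to 15.8 to 18.1 CPM at 1 h and 16.2 to 18.8 CPM at 4 h. COL1A2 and POSTN had 0 counts, whereas COL1A1 had 287 to 404 and COL3A1 175 to 217 in the vehicle libraries. Leukocyte and endothelial markers summed to 11.3 to 12.2 and 10.5 to 11.2 CPM. KDR, MS4A1 and CD68 had 0 counts, whereas VWF had 152 to 247, PECAM1 43 to 61 and CDH5 27 to 58. MET, the HGF receptor gene, was at 817 ± 22.2 CPM at 1 h and 817 ± 18.8 CPM at 4 h (SD, n = 3), with an adjusted p of 0.987. MST1R, which encodes the MSP receptor RON, was at 59.3 ± 2.57 and 64.6 ± 4.70 CPM, with an adjusted p of 0.184.

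Cultured cells respond to handling and to any change of their medium with a short burst of immediate-early genes, which encode mostly transcription factors and feedback regulators with unstable mRNAs. Heat shock genes encode chaperones and are switched on by the factor HSF1 through repeated sites called heat shock elements. SR proteins bind exons to steer splicing, several of them limit their own level by splicing to transcripts that are degraded, and CLK kinases phosphorylate them. Growing cells also pass through the cell cycle, in which replication genes peak at the G1/S transition and mitotic genes at G2/M.

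Levels are given in CPM, the count of a gene relative to the library total scaled by its TMM factor. A gene was called where the adjusted p of edgeR's quasi-likelihood test (Benjamini-Hochberg over all 16794 genes) was below 0.05, and SE is the standard error of a log2 fold change. Between 1 h and 4 h 3513 genes were called, 20.9% of those tested. Of these 1836 (10.9%) were higher and 1677 (9.99%) were lower at 4 h, so 52.3% of calls were rises. The 10.9% and 9.99% are the background for the counts of every gene list below. Scaled by library totals instead of TMM factors, 1474 genes were higher and 2055 lower, and 41.8% of calls were rises. The changes were small, with a median size of 0.25 on the log2 scale among called genes. At least 1.5-fold rises were seen in 82 called genes (0.488%) and falls of that size in 179 (1.07%). At least 2-fold rises were seen in 19 called genes (0.113%) and at least 2-fold falls in 49 (0.292%). In 3270 genes (19.5%) every 4 h library lay above every 1 h library, and in 3062 (18.2%) every 4 h library lay below. This held for 3414 of the 3513 called genes in one direction or the other. Called genes named by rule (given under processing) had to show it, so for them it was fixed in advance.

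**Figure D1:**
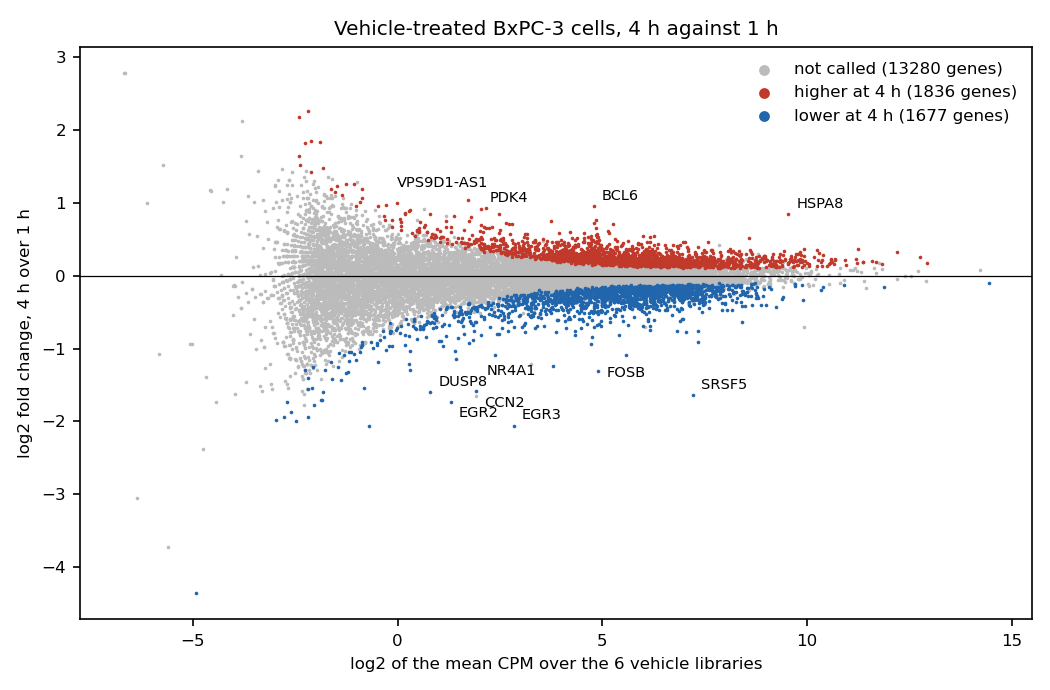
Each point is a gene, with the log2 of its mean CPM over the 6 vehicle libraries on the x axis and its log2 fold change from 1 h to 4 h on the y axis. The 1836 genes called higher are red, the 1677 called lower are blue and the rest are grey; 1 gene with no count in the vehicle libraries is not drawn. The named falls reach further from 0 than the named rises.

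The immediate-early transcription factors fell as a group. Of 23 tested, 18 were lower at 4 h and 0 were higher, against 9.99% and 10.9% of all genes, and their median log2 change was -0.49, against -0.0007 over all genes. EGR3, a zinc finger factor of the EGR family, had 10.5, 12.6 and 11.4 CPM in the 1 h libraries and 2.84, 2.53 and 2.92 CPM in the 4 h libraries. Every 4 h library was thus below every 1 h library, and the fall was 4.16-fold (log2 -2.06, SE 0.098, adjusted p 2.85e-15). EGR3 shares its locus with an opposite-strand gene, and whether featureCounts used strand is not stated in the labels, so reads of the 2 genes cannot be told apart. EGR2, of the same family, had 3.60, 4.07 and 3.67 CPM at 1 h and 1.24, 1.07 and 1.11 CPM at 4 h, a 3.32-fold fall (SE 0.14 on the log2 scale, adjusted p 7.06e-10).

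FOSB, a partner of JUN in the AP-1 factor, had 38.5, 43.8 and 45.2 CPM at 1 h and 17.3, 16.9 and 17.4 CPM at 4 h, and its groups did not overlap. The fall was 2.47-fold (SE 0.059 on the log2 scale, adjusted p 4.36e-16). FOSB overlaps ERCC1 on the opposite strand and is uncertain in the same way. The orphan nuclear receptor gene NR4A1 had 17.2, 20.4 and 20.9 CPM at 1 h and 9.70, 7.28 and 7.75 CPM at 4 h, a 2.37-fold fall (adjusted p 3.82e-09). Among the other AP-1 genes, FOSL1 fell from 65.2 ± 6.74 to 30.7 ± 4.05 CPM, JUN from 84.1 ± 4.00 to 55.7 ± 2.58 CPM and FOS from 15.4 ± 0.555 to 11.01 ± 0.773 CPM. The stress factor gene ATF3 fell from 7.02 ± 0.476 to 3.31 ± 0.240 CPM. EGR1 fell less than its relatives, from 66.2 ± 7.41 to 49.5 ± 2.03 CPM (log2 -0.42, SE 0.089, adjusted p 0.00326); the difference between these genes was not tested. JUNB (log2 -0.07, adjusted p 0.309), HES1 (-0.07, 0.374), KLF6 (-0.09, 0.441), NR4A2 (0.13, 0.455) and KLF2 (0.39, 0.136) were the 5 members that did not pass the test.

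Promoters of the called members were searched on both strands for 6 motifs, in RefSeq sequence (build GRCh38.p14) from 250 bases before to 50 bases after each listed start. The CArG box is the site of SRF, the serum response factor, and is shown because it is a classic element of immediate-early promoters. It was found in 3 of 21 promoters of the 14 called members in the table (14.3%), against 1.29% of all 35116 promoters. The 3 were promoters of EGR1, EGR2 and SRF itself. Such a contrast comes with the choice of list, and members that were not called were not searched for comparison, so it cannot be tied to the fall. SRF was lower by only 0.14 on the log2 scale (83.2 ± 1.15 to 75.6 ± 1.77 CPM, adjusted p 0.0191). The windows below were chosen after the search and carry the box in capitals. They lie at chr5:138465360-138465419 (plus strand), chr10:62816414-62816451 (minus strand, 1 of 3 listed starts) and chr6:43171225-43171282 (plus strand, 1 of 2 listed starts).
EGR1: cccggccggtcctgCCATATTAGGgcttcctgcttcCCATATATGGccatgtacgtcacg
EGR2: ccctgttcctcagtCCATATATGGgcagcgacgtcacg
SRF: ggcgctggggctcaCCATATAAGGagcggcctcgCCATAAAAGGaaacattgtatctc
The EGR1 boxes span 105 to 74 bases before the start, the EGR2 box 71 to 62 bases, and the SRF boxes 30 to 1 bases. The cyclic AMP response element TGACGTCA was found in 2 of the 21 (9.52%, JUND and MAFF), against 1.85% of all promoters, and the E-box CACGTG in 4 (19.0%), against 7.26%. The AP-1 site TGANTCA was found in none, against 7.71%. FOSB had 1 listed start (chr19:45467746-45468045, plus strand), and none of these letters is in its window, shown here because FOSB had the smallest adjusted p of the group among genes with a single listed start.
FOSB: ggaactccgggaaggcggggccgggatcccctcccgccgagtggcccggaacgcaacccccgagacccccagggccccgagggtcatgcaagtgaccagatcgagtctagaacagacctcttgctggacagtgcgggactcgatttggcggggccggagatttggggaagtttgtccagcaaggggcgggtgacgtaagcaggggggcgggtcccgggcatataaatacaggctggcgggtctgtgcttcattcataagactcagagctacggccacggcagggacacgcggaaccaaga

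Other immediate-early genes were mixed. Of 21 tested, 9 were lower (42.9%) and 2 higher (9.52%), with a median log2 change of -0.08. CCN2, a secreted matrix protein and a target of YAP and SRF, had 4.78, 6.14 and 5.95 CPM at 1 h and 2.32, 1.52 and 1.84 CPM at 4 h, a 2.98-fold fall with no overlap (adjusted p 6.92e-07). Its relative CCN1 fell from 145 ± 2.71 to 94.7 ± 13.3 CPM. RHOB, a short-lived small GTPase, fell from 30.3 ± 0.682 to 19.0 ± 0.790 CPM (adjusted p 1.48e-09), and PHLDA1 from 414 ± 10.4 to 267 ± 8.73 CPM (adjusted p 4.73e-09), with opposite-strand genes at the PHLDA1 locus. MCL1, an anti-apoptotic protein with a short half-life, fell from 532 ± 15.2 to 404 ± 20.2 CPM. The 2 rises were the kinase gene PIM1, from 18.8 ± 0.866 to 28.2 ± 1.04 CPM, and BTG2, an antiproliferative gene, with a log2 change of 0.28.

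Genes that feed back on ERK signalling were mostly lower where they passed the test. Of 17 tested, 7 fell (41.2%) and 2 rose (11.8%, SPRY1 and SPRY2, log2 0.21 and 0.23), with a median of -0.21. Only 1 of these rises was called with library totals, with RLE factors, with no filter on low counts or when any 1 of the 6 vehicle libraries was left out. DUSP5, a nuclear ERK phosphatase, had 197, 210 and 204 CPM at 1 h and 128, 119 and 113 CPM at 4 h, a 1.70-fold fall (SE 0.048 on the log2 scale, adjusted p 1.69e-12). DUSP8, a phosphatase of the stress-activated kinases, was scarce and fell from 2.61 ± 0.311 to 0.857 ± 0.137 CPM (3.03-fold, adjusted p 3.36e-06). DUSP6 fell from 174 ± 3.62 to 147 ± 4.17 CPM and DUSP4 from 142 ± 2.08 to 113 ± 4.65 CPM. EPHA2, a receptor tyrosine kinase, fell from 282 ± 13.4 to 202 ± 4.93 CPM (adjusted p 3.99e-09), with an antisense gene at its locus. DUSP1, often among the first phosphatases to be induced, was at 6.63, 4.80 and 6.56 CPM at 1 h and 5.68, 6.12 and 6.87 CPM at 4 h, and its groups overlapped.

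All 6 EGF-family ligand genes tested passed the test, 5 of them lower. EREG, which encodes epiregulin, had 35.7, 36.1 and 32.8 CPM at 1 h and 18.9, 17.8 and 18.02 CPM at 4 h (log2 -0.94, SE 0.076, adjusted p 5.80e-09). AREG fell from 32.0 ± 2.55 to 24.0 ± 2.53 CPM, HBEGF from 32.7 ± 5.19 to 23.3 ± 2.08 CPM and TGFA from 63.4 ± 0.733 to 48.5 ± 2.38 CPM. The neuregulin gene NRG1 went the other way, from 153 ± 8.47 to 175 ± 3.14 CPM (adjusted p 0.0101), and without 1 h replicate 1 no ligand gene was called higher. The falls were 4 without 1 h replicate 2 or 3 or 4 h replicate 1 or 2.

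**Figure D2:**
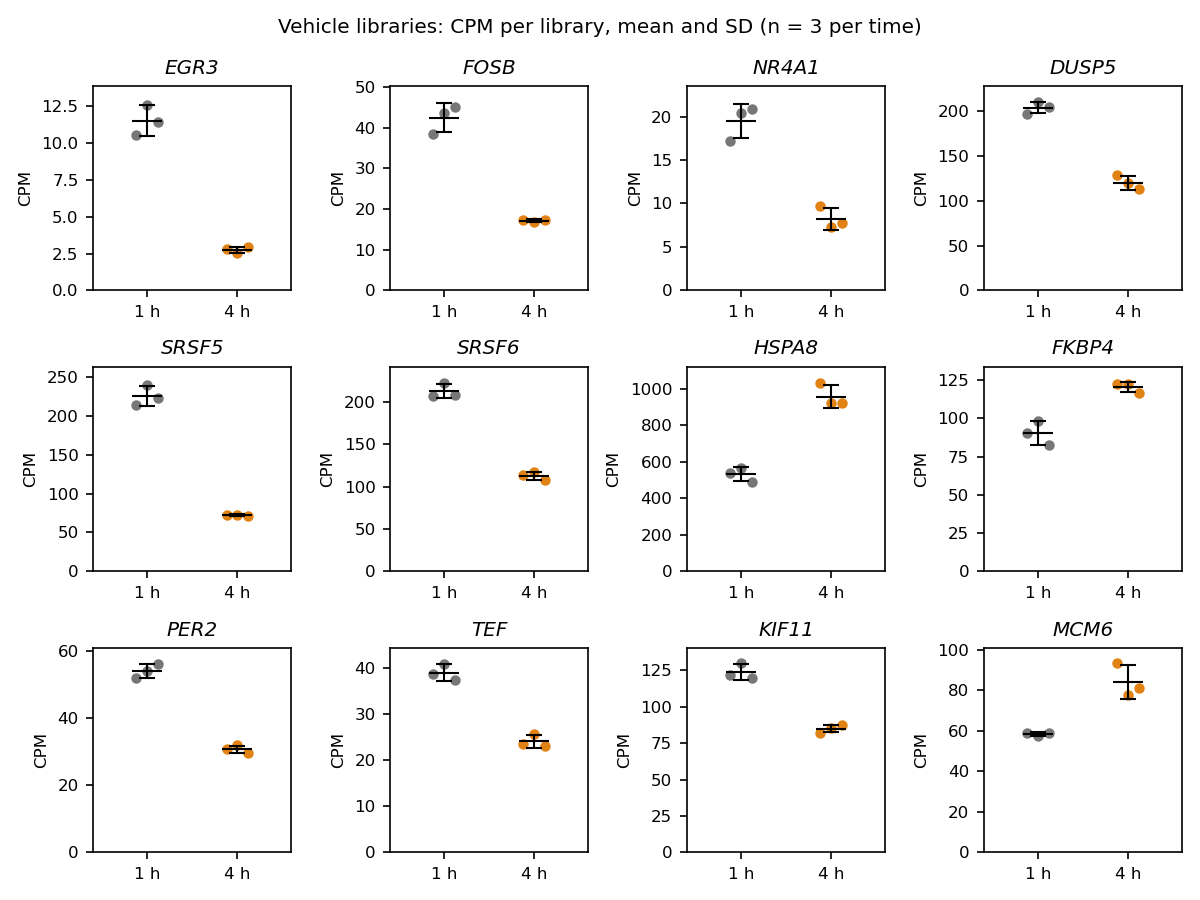
CPM of 12 genes in each vehicle library (points), with mean and SD (n = 3 per time), on y axes that start at 0. Separate groups were a condition for naming these genes, so the 1 h and 4 h libraries overlap in no panel. EGR3, FOSB, NR4A1, DUSP5, SRSF5, SRSF6, PER2, TEF and KIF11 are lower at 4 h, and HSPA8, FKBP4 and MCM6 are higher.

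Splicing factor genes moved in both directions. Among 19 SR protein and SR kinase genes, 6 fell (31.6%) and 6 rose (31.6%), and the median was 0.01. SRSF5, an SR protein that cells induce on serum and insulin stimulation, had 214, 239 and 223 CPM at 1 h and 72.6, 73.1 and 70.8 CPM at 4 h. Its groups lay far apart, and the fall was 3.12-fold (log2 -1.64, SE 0.046), with an adjusted p of 1.11e-21. SRSF6 had 207, 222 and 209 CPM at 1 h and 114, 117 and 108 CPM at 4 h, a 1.89-fold fall (adjusted p 6.81e-15). SRSF3, known for regulating its own splicing, fell from 336 ± 10.6 to 241 ± 2.11 CPM, and SRSF7, SRSF8 and SRSF11 fell by 0.24, 0.24 and 0.18 on the log2 scale.

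All 4 CLK kinase genes rose. CLK1 had 20.9, 21.0 and 23.0 CPM at 1 h and 31.1, 32.3 and 31.5 CPM at 4 h (log2 0.55, SE 0.060, adjusted p 1.25e-07). CLK2 rose from 17.1 ± 0.477 to 24.5 ± 0.954 CPM, CLK3 from 24.4 ± 1.45 to 35.2 ± 1.75 CPM and CLK4 from 9.05 ± 0.495 to 11.2 ± 0.873 CPM. The other 2 rises were SRSF1 (log2 0.20) and SRSF2 (0.16). The SR protein kinase genes SRPK1 (log2 0.01, adjusted p 0.875) and SRPK2 (0.05, 0.496) did not pass the test. These counts sum all transcripts of a gene, so productive and degraded isoforms cannot be told apart.

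Of 22 nuclear speckle and U1-linked genes, 7 fell (31.8%) and 3 rose (13.6%). PNISR fell from 57.9 ± 2.59 to 42.9 ± 0.726 CPM (adjusted p 1.15e-06; an antisense gene lies at its locus), whereas RSRC2 rose from 44.0 ± 1.59 to 56.6 ± 1.78 CPM (adjusted p 3.50e-06). The cyclin gene CCNL1 and ARGLU1 fell by 0.39 and 0.34 on the log2 scale. Of 18 hnRNP genes, which encode abundant RNA-packaging proteins, 6 fell and 0 rose, by 0.13 to 0.19 on the log2 scale. That count was 2 without 1 h replicate 1, 1 without 1 h replicate 2 and 6 without 1 h replicate 3. It was 1 without 4 h replicate 1, 3 without 4 h replicate 2 and 4 without 4 h replicate 3, so it is not stable. Falls over all genes also dropped, from 1677 to between 1013 and 1434, with 1 vehicle library left out. The core spliceosome moved the other way: of 32 genes 18 rose and 2 fell, with a median of 0.14. Over the 14 alternatives 12 to 19 rose. The 18 rises were small, from 0.13 (SF3B4) to 0.29 (SF3B5) on the log2 scale. The 2 falls were SNRPB2 (log2 -0.16) and U2AF1, which had under 1 CPM in every library and has a near-identical copy, so it is uncertain. The falls were 0 without 1 h replicate 3 or 4 h replicate 2, and 1 without 1 h replicate 1 or 4 h replicate 1.

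Heat shock genes rose. Of 21 tested, 16 were higher at 4 h (76.2%) and 0 lower, with a median log2 change of 0.29. Over the 14 alternatives 12 to 17 were higher and 0 lower. The count was 12 without 1 h replicate 3 or 4 h replicate 1, where rises over all genes were also fewer. HSPA8, the constitutive HSP70 chaperone HSC70, had 537, 568 and 491 CPM at 1 h and 1028, 919 and 919 CPM at 4 h. Its lowest 4 h library was far above its highest 1 h library, and the rise was 1.80-fold (log2 0.84, SE 0.048, adjusted p 1.47e-13). FKBP4, a co-chaperone of HSP90, had 90.2, 98.1 and 82.9 CPM at 1 h and 123, 123 and 117 CPM at 4 h (log2 0.42, SE 0.053, adjusted p 1.95e-06), with an antisense gene at its locus. HSP90AB1 rose from 787 ± 32.0 to 970 ± 20.8 CPM, HSPB1 from 616 ± 15.9 to 779 ± 28.8 CPM, and DNAJA1, an HSP40 co-chaperone, from 163 ± 7.91 to 204 ± 1.51 CPM. HSP90AA1, the stress-inducible HSP90 gene, rose less, from 1366 ± 59.3 to 1500 ± 47.9 CPM (log2 0.14, adjusted p 0.0162). The inducible HSP70 genes HSPA1A and HSPA1B rose by 0.29 and 0.33 but are near-identical copies and uncertain. BAG3, an inducible HSP70 co-chaperone, was at 285, 281 and 274 CPM at 1 h and 271, 280 and 277 CPM at 4 h, and its groups overlapped. Of 18 endoplasmic reticulum chaperone genes, 6 rose (33.3%) and 2 fell (11.1%), with HSPA5 rising from 768 ± 23.7 to 941 ± 16.2 CPM.

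The heat shock element of 3 units (GAA, 2 bases, TTC, 2 bases, GAA, on either strand) was found in 7 of 24 promoters of 15 called heat shock genes in the RefSeq table (29.2%), against 0.490% of all 35116 promoters. Its 2-unit core GAANNTTC, which overlaps it, was found in 12 of 24 (50%), against 6.77%. Promoter searches of this kind describe letters and not binding. Heat shock genes are controlled through this element, so the contrast comes with the list. Members that were not called were not searched for comparison, so it cannot be tied to the rise. HSPA8 had 2 elements, 230 to 218 and 55 to 43 bases before its start, in the window chr11:123062087-123062386 (minus strand), printed with both elements in capitals because HSPA8 had the largest change of the group.
HSPA8: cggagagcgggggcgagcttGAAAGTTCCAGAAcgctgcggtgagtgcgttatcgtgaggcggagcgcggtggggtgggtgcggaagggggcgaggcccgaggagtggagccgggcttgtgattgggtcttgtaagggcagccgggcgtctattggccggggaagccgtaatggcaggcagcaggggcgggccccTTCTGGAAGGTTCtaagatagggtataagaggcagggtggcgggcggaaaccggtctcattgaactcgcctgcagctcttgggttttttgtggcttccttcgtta
The remaining promoters with the element are given as shorter windows, chosen after the search, with the element in capitals. They lie at chr11:90223073-90223123 (minus strand), chr9:33025262-33025302 (plus), chr14:102087106-102087146 (minus), chr6:44247817-44247857 (plus, the nearer of 2 elements), chr2:197500054-197500090 (minus) and chr11:75562163-75562203 (plus).
CHORDC1: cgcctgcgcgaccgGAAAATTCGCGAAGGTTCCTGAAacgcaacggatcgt
DNAJA1: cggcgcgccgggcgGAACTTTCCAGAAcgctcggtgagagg
HSP90AA1: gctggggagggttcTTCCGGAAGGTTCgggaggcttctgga
HSP90AB1: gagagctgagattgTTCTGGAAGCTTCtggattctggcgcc
HSPD1: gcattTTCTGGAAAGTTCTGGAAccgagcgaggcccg
SERPINH1: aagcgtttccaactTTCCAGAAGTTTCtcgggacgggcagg
The CHORDC1 window holds 3 overlapping matches and the HSPD1 window 2. These genes rose by different amounts: CHORDC1 by 0.40 on the log2 scale (22.4 ± 1.53 to 29.6 ± 1.31 CPM), HSPD1 by 0.14 (374 ± 19.6 to 412 ± 14.6 CPM) and SERPINH1, the collagen chaperone HSP47, by 0.15 (280 ± 8.13 to 310 ± 11.8 CPM).

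Of 34 G2/M and mitosis genes 22 were lower at 4 h (64.7%) and 0 higher, with a median of -0.21. In bulk libraries, fewer cells in a phase and less RNA per cell cannot be told apart. KIF11, the kinesin that separates spindle poles, had 121, 130 and 119 CPM at 1 h and 82.0, 85.4 and 87.3 CPM at 4 h (log2 -0.54, SE 0.066, adjusted p 3.86e-06), with no overlap. KIF23, a kinesin of the cytokinetic midzone with an antisense gene at its locus, fell from 138 ± 5.83 to 107 ± 5.47 CPM (adjusted p 4.07e-06). TOP2A, the mitotic DNA topoisomerase, fell from 586 ± 22.6 to 443 ± 14.03 CPM, CDK1 from 115 ± 9.79 to 91.4 ± 6.07 CPM and CCNB1 from 197 ± 7.32 to 172 ± 6.15 CPM. CDC20 (log2 -0.09, adjusted p 0.121), AURKB (-0.07, 0.485) and MKI67 (-0.15, 0.130) did not pass the test. Over the 14 alternatives, 17 to 30 members were lower and 0 higher.

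Of 34 G1/S and replication genes 12 rose (35.3%) and 2 fell (5.88%), with a median of 0.15. MCM6, a subunit of the replicative helicase, had 59.1, 57.4 and 58.8 CPM at 1 h and 93.3, 77.6 and 81.2 CPM at 4 h (log2 0.52, SE 0.055, adjusted p 6.67e-08). MCM2 had 102, 104 and 98.6 CPM at 1 h and 149, 123 and 136 CPM at 4 h (log2 0.42, adjusted p 7.69e-07), and overlaps TPRA1 on the opposite strand. The subunit genes MCM3, MCM4, MCM5 and MCM7 rose by 0.35, 0.27, 0.34 and 0.27 on the log2 scale, and E2F1, the factor that drives this programme, rose from 13.7 ± 0.659 to 17.1 ± 1.54 CPM. The 2 falls were the cyclin gene CCNE2, from 14.2 ± 0.448 to 10.2 ± 1.59 CPM, and GINS1 (log2 -0.21), and 1 fall was left when any 1 library other than 4 h replicate 2 was left out. RRM2 had the most negative log2 change of the list (-0.62) but did not pass the test. TYMS, which makes thymidylate, did not pass it either (log2 -0.01). Of 15 G1 cyclin, CDK and CDK inhibitor genes 5 fell, among them CCND1 (log2 -0.16), and 1 rose, CDK4 (0.26), and without 1 h replicate 1 or 2 the falls were 3. Of 18 p53 target genes 8 fell (44.4%), among them AEN (21.4 ± 0.707 to 13.1 ± 2.001 CPM) and MDM2 (94.1 ± 2.97 to 77.7 ± 3.08 CPM). In this list 1 rose (5.56%), SESN1 (log2 0.41).

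**Figure D3:**
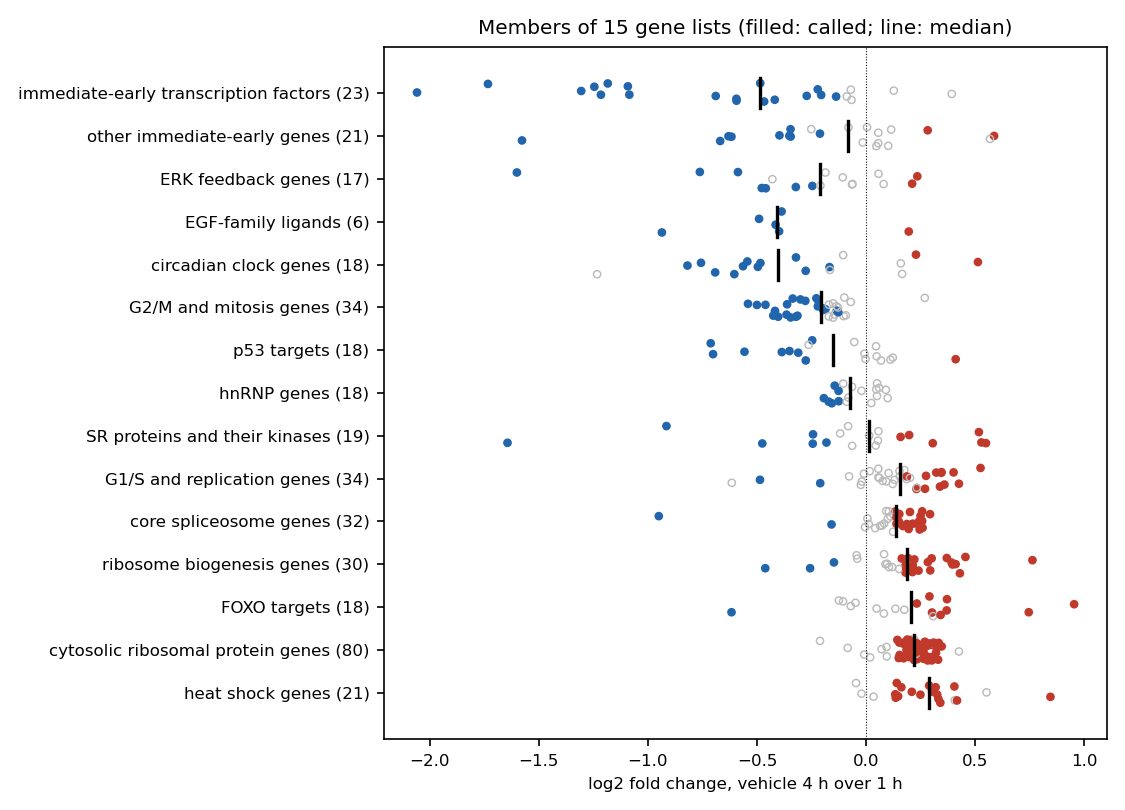
Each point is a tested member of 1 of 15 gene lists (number of members in brackets), placed by its log2 fold change from 1 h to 4 h in the vehicle libraries; filled points were called, open points were not, and black lines are medians. The medians run from -0.49 for immediate-early transcription factors to 0.29 for heat shock genes.

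Circadian clock genes were mostly lower. The clock is a loop in which BMAL1 with CLOCK or NPAS2 activates the PER, CRY and NR1D genes, whose products repress it. Of 18 tested, 11 fell (61.1%) and 2 rose (11.1%), with a median of -0.40. PER2 had 52.1, 54.2 and 56.2 CPM at 1 h and 30.7, 31.9 and 29.5 CPM at 4 h, a 1.76-fold fall (adjusted p 8.87e-12), with an opposite-strand gene at its locus. PER1 fell from 25.3 ± 0.728 to 14.96 ± 0.813 CPM and PER3 from 65.3 ± 0.913 to 44.2 ± 2.87 CPM. TEF, an output factor of the clock, had 38.7, 40.9 and 37.3 CPM at 1 h and 23.6, 25.7 and 23.1 CPM at 4 h (adjusted p 1.91e-09). NR1D2 fell from 92.8 ± 3.78 to 61.0 ± 4.58 CPM, while NR1D1 (log2 0.16, adjusted p 0.0999) and CRY1 (-0.11, 0.411) did not pass the test. The 2 rises were in the activating arm: BMAL1 rose from 15.9 ± 0.216 to 22.6 ± 0.751 CPM and NPAS2 by 0.23 on the log2 scale, though CLOCK fell by 0.17. With 2 times in one day no rhythm can be read from these values. Without 4 h replicate 1 the count of falls was 7, and without 1 h replicate 1 the count of rises was 1.

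FOXO targets were mostly higher where they passed the test. Of 18 FOXO targets 8 rose (44.4%) and 1 fell (5.56%), with a median of 0.20. From 1 h to 4 h after MSP 5 of them rose and 4 fell, with a median of -0.03. After HGF 3 rose and 11 fell, with a median of -0.67. A difference between the MSP and vehicle arms was called in 0 of the 18. BCL6, a transcriptional repressor, had 19.8, 17.4 and 19.5 CPM at 1 h and 34.0, 39.2 and 36.4 CPM at 4 h, a 1.94-fold rise (SE 0.073 on the log2 scale, adjusted p 1.65e-10). DEPP1 rose from 9.96 ± 0.698 to 16.7 ± 1.58 CPM, and TXNIP, which limits glucose uptake, from 843 ± 76.4 to 1090 ± 120 CPM. PDK4, the kinase that shuts off pyruvate dehydrogenase, had 3.42, 2.85 and 2.25 CPM at 1 h and 4.85, 6.15 and 5.05 CPM at 4 h (log2 0.92, SE 0.15, adjusted p 8.42e-05). Most other large rises were of scarce transcripts. VPS9D1-AS1 rose from 2.15 ± 0.424 to 4.44 ± 0.0405 CPM (adjusted p 8.40e-07) and CSKMT from 3.05 ± 0.218 to 5.83 ± 0.560 CPM (adjusted p 3.40e-06), and each overlaps another gene on the opposite strand. JCAD was at 0.861 ± 0.157 and 1.61 ± 0.248 CPM, and G0S2, an inhibitor of triglyceride lipase, at 1.24 ± 0.248 and 2.22 ± 0.179 CPM (adjusted p 0.00198 and 0.00175). ANKRD37, at 1.26, 0.634 and 0.569 CPM at 1 h and 1.45, 1.46 and 1.48 CPM at 4 h, was called (adjusted p 0.0221) but lost the call when any 1 of 5 libraries was left out, with an adjusted p of up to 0.134, and it overlaps UFSP2 on the opposite strand. Of the falls, CHAC1, a glutathione-degrading enzyme of the ATF4 stress response, went from 1.75 ± 0.284 to 0.710 ± 0.123 CPM (adjusted p 8.26e-05). Its list of 16 had 3 rises (18.8%) and 2 falls (12.5%), with 1 fall without 1 h replicate 1 or 2 or 4 h replicate 3.

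Genes for making ribosomes and proteins were higher by small amounts. Of 80 cytosolic ribosomal protein genes 68 rose and 0 fell, with a median of 0.22 and called rises of 0.14 to 0.35 on the log2 scale. With library totals 63 rose and 0 fell, and over the 14 alternatives 54 to 73 rose and 0 fell. Their share of all counts was 5.35% ± 0.102 at 1 h and 6.11% ± 0.0318 at 4 h (SD, n = 3). Of 30 ribosome biogenesis genes 19 rose and 3 fell, with a median of 0.19. BOP1, needed for maturation of the large subunit, had 21.3, 21.3 and 21.2 CPM at 1 h and 37.6, 35.9 and 34.6 CPM at 4 h (log2 0.76, SE 0.062, adjusted p 6.02e-10). POLR1A, the largest subunit of RNA polymerase I, rose from 60.9 ± 0.833 to 83.5 ± 6.45 CPM, and the 3 falls were GAR1, UTP15 and WDR43. Of 71 mitochondrial ribosomal protein genes 23 rose and 1 fell, and of 64 nuclear-encoded respiratory chain genes 32 rose and 2 fell, with 0 or 1 fall when any 1 vehicle library was left out. The 13 mitochondrially encoded genes had 4 falls and 0 rises (2 falls without 4 h replicate 1 or 2), and their share of counts was 9.18% ± 0.236 at 1 h and 8.82% ± 0.142 at 4 h. Of 34 proteasome subunit genes 14 rose (41.2%) and 1 fell (2.94%). Leaving out 4 h replicate 1 brought the rises to 15 of the mitochondrial ribosomal, 21 of the respiratory chain and 7 of the proteasome genes. The first of these was also 15 without 1 h replicate 2, and the last was 6 without 1 h replicate 3 and 9 without 4 h replicate 2.

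Cytoskeletal and lipid genes also moved. Of 22 SRF, YAP and cytoskeletal genes 11 rose and 1 fell, the fall being ANKRD1 (log2 -0.57), with library totals these counts were 9 and 4, and without 4 h replicate 1 the rises were 7. FLNA, an actin crosslinker, rose from 2142 ± 37.0 to 2754 ± 145 CPM and MYH9, a non-muscle myosin, from 1117 ± 32.3 to 1379 ± 64.8 CPM. Of 22 cholesterol synthesis genes 10 rose and 2 fell (1 fell without 1 h replicate 2 or 4 h replicate 2 or 3), with DHCR7, the last enzyme of the pathway, rising from 105 ± 4.61 to 145 ± 13.05 CPM. The TGF-beta, SMAD and ID list of 15 had 6 falls (40%) and 2 rises (13.3%). The rises were 0 without 1 h replicate 1 or 2 or 4 h replicate 2 or 3, and 1 without either other library. Among its falls was the SMAD corepressor gene SKIL, from 142 ± 6.13 to 83.7 ± 3.19 CPM. Several lists moved in few members or in both directions, against 10.9% rises and 9.99% falls over all genes. Cytokine and NF-kB genes (19 tested) had 1 rise (5.26%) and 4 falls (21.1%), and interferon response genes (24) had 0 and 4 (16.7%). Hypoxia genes (15) had 4 and 4 (26.7% each), NRF2 genes (15) 4 (26.7%) and 0, and glycolysis genes (19) 6 (31.6%) and 1 (5.26%). Near the shares of all genes, mRNA decay genes (24) had 4 rises (16.7%) and 3 falls (12.5%). The snoRNA host genes (24) had 4 rises (16.7%) and 0 falls. These small counts varied between the alternatives. Calls over all genes also became fewer whenever 1 vehicle library was left out. The hypoxia rises were 1 without 1 h replicate 3 and 2 without 1 h replicate 2 or any 4 h library. The NRF2 rises were 2 without 4 h replicate 1, and 2 NRF2 genes fell without 1 h replicate 3 or with library totals. The interferon falls were 2 without 4 h replicate 1, and the mRNA decay rises 2 without 1 h replicate 3. The glycolysis rises were 3 with library totals or without 4 h replicate 1, and 2 without 1 h replicate 3. The 399 tested ZNF-named zinc finger genes had 42 rises and 28 falls, 10.5% and 7.02%, against 10.9% and 9.99% of all genes, and with library totals these were 33 and 35. Without 4 h replicate 2 the ZNF rises were 26 and the falls 17, and the falls were 14 without 1 h replicate 2 or 4 h replicate 1 and 17 without 1 h replicate 3.

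Called genes also differed in size. Among protein-coding genes tested, the median genomic span in GENCODE 29 was 21.2 kb for those higher at 4 h, 47.1 kb for those lower and 34.2 kb for all. Of 1045 protein-coding genes spanning up to 5 kb, 21.2% were higher and 7.27% lower. Of 2675 spanning over 100 kb, 7.55% were higher and 13.98% lower. Long intergenic RNAs had 11 rises and 42 falls among 998 tested (1.10% and 4.21%). Both shares are below those of all genes (10.9% and 9.99%) and of protein-coding genes (13.6% and 11.8%). Noncoding genes took 1.16% ± 0.0661 of counts at 1 h and 1.04% ± 0.00137 at 4 h. These are descriptions across genes, which are not independent, and the part of RNA quality or depth in them was not tested.

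**Figure D4:**
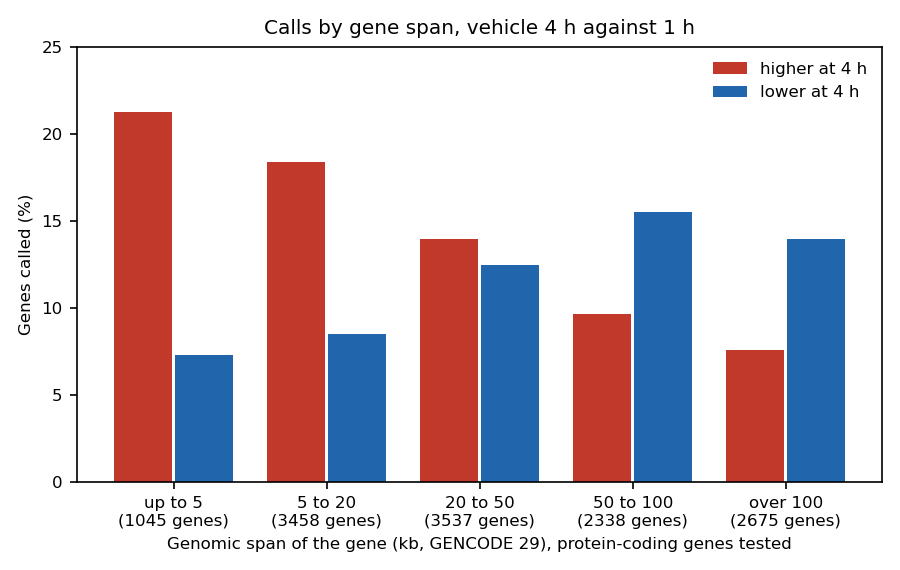
Share of tested protein-coding genes called higher (red) or lower (blue) at 4 h, in percent, by the genomic span of the gene in kb. The share of rises falls from 21.2% in the shortest class to 7.55% in the longest, and the share of falls goes from 7.27% to 13.98%, with 15.5% in the class of 50 to 100 kb.

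The same time difference can be read in the MSP and HGF libraries, which share no library with the vehicle comparison. From 1 h to 4 h after MSP 2473 genes were higher (14.7%) and 2456 lower (14.6%). Of the 3513 genes called in the vehicle libraries, 2642 were called in the same direction after MSP and 5 in the opposite one. The shared calls are 75.2% of the vehicle calls and 53.6% of the 4929 MSP calls. Log2 changes of both arms had a Pearson correlation of 0.80 across the called genes and 0.41 across all 16794, where points share libraries within each arm. The time change itself differed between the arms in 54 genes: the MSP arm minus the vehicle arm was positive in 8 (0.0476%) and negative in 46 (0.274%).

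Immediate-early genes were frequent among those that differed, with 11 of the 23 transcription factors. EGR3 went from 34.8 to 3.12 CPM after MSP, EGR2 from 10.7 to 0.946 CPM and FOSB from 83.6 to 18.2 CPM, so their levels at 4 h were near those of the vehicle libraries while their levels at 1 h were higher. SRSF5 changed by -1.46 after MSP and -1.64 after vehicle on the log2 scale (difference 0.18, SE 0.0635, adjusted p 0.368), and HSPA8 by 0.92 and 0.84 (difference 0.08, adjusted p 0.901). These differences were rare, at 0.0476% and 0.274% of all genes, so a list without one is near the background. There were 0 among SR proteins and their kinases, core spliceosome, hnRNP, G1/S, G2/M and clock genes, and 1 of 21 heat shock genes did (DNAJB1, 0.16 after vehicle and -0.13 after MSP).

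**Figure D5:**
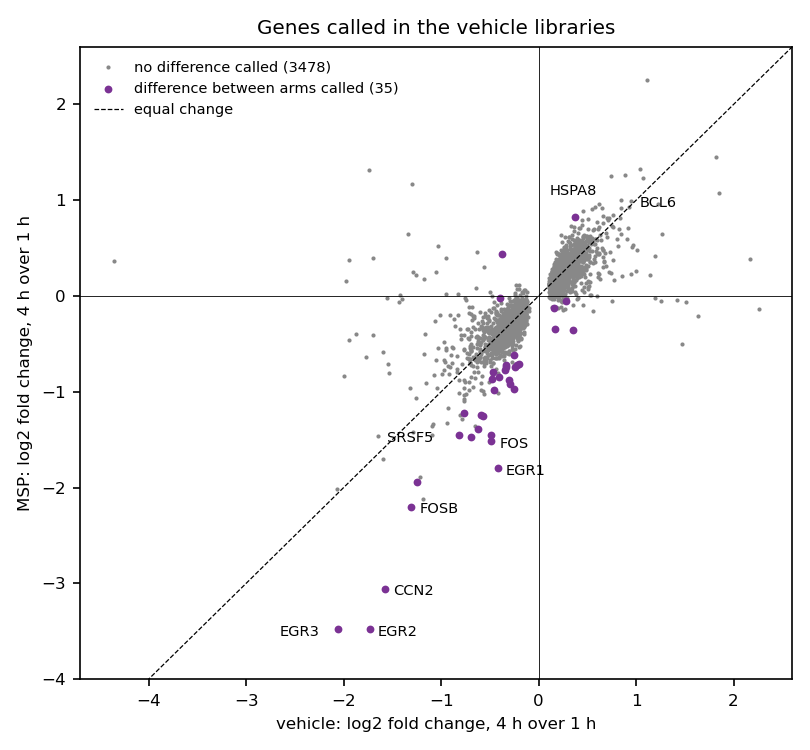
Genes called in the vehicle libraries, with the log2 fold change from 1 h to 4 h after vehicle on the x axis and after MSP on the y axis; the dashed line marks equal change. The 35 genes whose change differed between the arms are purple, and EGR3, EGR2, CCN2 and FOSB lie below the line.

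After HGF the time difference was larger, with 5366 genes higher (32.0%) and 5645 lower (33.6%). Of the vehicle calls 2281 (64.9%) recurred in the same direction, which is 20.7% of the 11011 HGF calls, and 600 (17.1%) were called in the opposite direction. The change over time differed between the HGF and vehicle arms in 4498 genes upward (26.8%) and 4437 downward (26.4%). With library totals the HGF counts were 3750 higher and 7748 lower, and the differences 3117 upward and 6371 downward. Replication genes were among those that turned: MCM6 rose by 0.52 on the log2 scale after vehicle and fell by 0.17 after HGF. HSPA8 rose in both arms, by 0.84 and 2.22. SRSF5 fell in both, by 1.64 and 1.45.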

How the data were processed

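RNA of BxPC-3 cells was made into libraries with a KAPA mRNA kit, per the labels' protocols. The authors deposited raw read counts for each gene, in 1 column per library. STAR, featureCounts and Subread are named in the submitters' processing notes. No label or header gives the build, the annotation or whether strand was used. Of 58395 Ensembl identifiers 41885 had a symbol in the name table.

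Genes were filtered with filterByExpr (minimum count 10, minimum total 15), scaled by TMM and fitted with edgeR 4.0.16 in R 4.3.3 (robust quasi-likelihood, 1 mean for each of 6 groups over 18 libraries, 12 residual degrees of freedom). P-values were adjusted by Benjamini-Hochberg over all genes tested. The script was tested on simulated data. A count of 0 allows 3 counts, 0.0759 to 0.0960 CPM relative to unscaled library totals. Alternatives were library totals, RLE factors, other filters, no robust estimation, a replicate block, only the 6 vehicle libraries, DESeq2 1.42.0 and leaving out each library.

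Named genes were the 8 largest rises and 8 largest falls among called genes with at least 1 CPM on average and separate groups. Up to 2 called members of 9 lists with the smallest adjusted p were added under the same conditions. MET and MST1R were always named. Other genes were chosen after their values were seen. The members and the 38 gene lists were chosen with earlier results of these data known.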

Additional observations from a re-analysis of the deposited data

Results flagged for a closer look

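The change over time in some named genes differed between the vehicle libraries and the treated ones by an interaction test (edgeR, adjusted p below 0.05). The values are the log2 change from 1 h to 4 h in the treated arm minus that in the vehicle arm, so a negative value is a deeper fall or a smaller rise after treatment. The treated arms share no library with the vehicle arm, but both sets of differences use the same vehicle libraries.

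With MSP the differences were all negative in the 7 named genes that passed: -1.42 for EGR3, -1.75 for EGR2, -1.48 for CCN2, -0.89 for FOSB, -0.69 for NR4A1, -0.46 for DUSP5 and -0.39 for EPHA2.

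With HGF the immediate-early and feedback genes differed by -3.89 for EGR3, -5.82 for EGR2, -3.67 for CCN2, -3.01 for FOSB, -2.99 for NR4A1, -0.24 for RHOB, 0.67 for PHLDA1, -0.85 for DUSP5, -0.90 for DUSP8 and -0.68 for EPHA2. Splicing genes differed by 0.19 for SRSF5, 0.19 for RSRC2 and -0.36 for PNISR. The chaperone genes HSPA8 and FKBP4 differed by 1.37 and 1.42. Cell cycle genes differed by -0.76 for KIF11, -0.41 for KIF23, -1.39 for MCM2 and -0.69 for MCM6, and the clock genes PER2 and TEF by -0.84 and -1.09. The receptor genes MET and MST1R differed by 0.26 and 0.80. Among the largest vehicle rises, the differences were 3.15 for JCAD, 1.66 for VPS9D1-AS1, 1.07 for G0S2, 0.54 for CSKMT, -0.93 for BCL6 and -2.72 for PDK4.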

How the results depend on the processing

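Of the 3513 genes called in the vehicle libraries, 0 were called in the opposite direction under any of the 14 alternatives. These reuse the same libraries, so a called reversal was hardly possible. With 1 vehicle library left out, 2146 (without 4 h replicate 1) to 2777 (without 4 h replicate 3) of the 3513 kept their call and direction. Leaving out 1 library at a time, 1205 to 1552 genes were higher, lowest without 1 h replicate 3 and 1214 without 4 h replicate 1, and 1013 to 1434 were lower, lowest without 4 h replicate 1. With a replicate block 1965 genes were higher and 1753 lower; same-numbered libraries correlated at only 0.035, 0.059 and 0.027 in their deviations, so the shared numbers were not taken as a pairing, although each library correlated best with its own number. With no filter on low counts 43.8% of calls were rises (1512 against 1942 genes), and with only the 6 vehicle libraries 45.0% (1852 against 2265). Genes whose change differed between the MSP and vehicle arms were 72 upward and 76 downward with no filter, 30 and 72 with DESeq2, and 2 to 22 and 34 to 59 with 1 library left out. For the 30 called named genes, 415 of 420 alternative values kept their call and direction, and the 5 that lost the call were all of ANKRD37. Those 30 genes were chosen for large changes or small adjusted p, so this was largely fixed in advance. MET was called under none of the 14 alternatives, and its log2 change ran from -0.024 to 0.020. Depth of the 4 h libraries sets a floor of up to 0.0960 CPM for a count of 0, and such floors cover counting error only.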

Other observations

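Several gene groups outside the lists above moved together over time in the vehicle libraries. They were assembled after their values were seen, so their counts are descriptions only. Over all genes 10.9% were higher and 9.99% lower. Of 21 tested genes of nucleotide and one-carbon synthesis 13 were higher at 4 h and 0 lower, with a median log2 change of 0.24. CAD, which starts pyrimidine synthesis, went from 29.4 to 47.8 CPM, the folate carrier gene SLC19A1 from 5.02 to 8.21 CPM and the mitochondrial folate enzyme gene MTHFD1L from 56.8 to 78.5 CPM, while TYMS (log2 -0.01) and MTHFD2 (-0.02) were not called. Of 20 cytosolic aminoacyl-tRNA synthetase genes 14 were higher and 0 lower, led by VARS1 (34.3 to 47.7 CPM) and MARS1 (70.0 to 95.0 CPM). Of 8 genes of the cytosolic chaperonin 7 were higher, and of 13 eIF3 subunit genes 8 were higher and 1, EIF3J, lower. In the MSP libraries, which these comparisons do not share, the synthetases had 17 rises and the nucleotide genes 15, with 0 falls in either.

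Of 12 microRNA host genes 4 were lower at 4 h and 0 higher. MIR17HG, the host of the miR-17-92 cluster, went from 2.86 to 1.48 CPM and MIR22HG from 18.5 to 10.8 CPM. PTGS2, the inducible cyclooxygenase gene, went from 168 to 98.3 CPM (adjusted p 2.51e-05 by edgeR), and FASN, the fatty acid synthase gene, from 314 to 449 CPM (adjusted p 7.90e-05 by edgeR).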
